A study of Mus musculus with 8 samples.

Results

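Alkaline phosphatases are zinc enzymes that remove phosphate from many kinds of ester at the outer face of the cell, where a glycosylphosphatidylinositol (GPI) lipid anchor holds them in the membrane. At the brush border of the gut they act on nucleotides, on phosphorylated vitamins and on bacterial endotoxin. In the mouse, Akp3 encodes the duodenal enzyme, Alpi encodes the form found along the whole intestine, and Alpl encodes the tissue-nonspecific enzyme known from bone, liver, kidney and blood vessels. These 3 genes, of 18193 named on the array, are the subject here, and each had 1 probe set among the 34945 probe sets with a single gene symbol. They were chosen by name as related genes, at a time when the knockout against control values of these samples were already known, so the differences, intervals and calls given for them below describe that contrast and are not a test of it. Alpl is not an intestinal enzyme by its usual role, so the group is called the alkaline phosphatases.

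RNA was measured in the 5 cm of small intestine next to the stomach, in male mice aged 6 months on a diet with 4.5% fat. The 4 knockout (KO) mice were Pdx1flox/flox;VilCre. In them Cre, driven by a 12.4 kb stretch of the villin 1 promoter, removes exon 2 of Pdx1, which encodes the homeodomain, in the gut epithelium. The 4 control (Ctrl) mice were Pdx1flox/flox littermates, so both groups carried the floxed alleles and the KO group alone carried Cre. Mice with Cre and unfloxed Pdx1 were not analysed here. The study asked which transcripts of the adult duodenum depend on Pdx1, a transcription factor of duodenum and pancreas.

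Each mouse gave a single Affymetrix array of whole tissue, with values on the log2 scale, where 1 unit is a doubling. Array medians lay between 5.23 and 5.27, and 4 arrays a group set the precision. Between arrays, Pearson's r lay between 0.990 and 0.996, and 0 pairs of arrays were identical. KO 3 stood furthest from the other arrays: together with Ctrl 2 it lay at one end of the first principal component, which held 38.3% of the variance of probe sets with a mean of at least 6. The brighter Pdx1 probe set read 6.04, 5.91, 6.18 and 5.58 in KO 1 to 4, against 8.33, 8.61, 8.16 and 8.98 in Ctrl 1 to 4, a log2 difference of -2.59 (adjusted p = 4.16e-04 in limma). Where its probes lie relative to exon 2 was not examined here. The enterocyte gene Vil1 averaged 12.79 ± 0.059 in KO and 12.60 ± 0.092 in Ctrl samples (SD, n = 4 each), so epithelial RNA was present in both groups.

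Akp3, Alpi and a relative, Alppl2, sit beside each other on chromosome 1, while Alpl is on chromosome 4. Alppl2 is known as the embryonic alkaline phosphatase. The 3 promoters of the chromosome 1 cluster are shown because neighbouring paralogs read so differently in the knockout. They come from RefSeq on GRCm38.p6 and run 5′ to 3′ from 250 bases before to 50 bases after the annotated start. The capitals mark a run of 13 bases that all 3 hold, and no shared run is longer. Another shared run of the same length, gggtggggccagg, follows it within a few bases in each window and is not marked.

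Akp3, chr1:87124704-87125003, plus strand: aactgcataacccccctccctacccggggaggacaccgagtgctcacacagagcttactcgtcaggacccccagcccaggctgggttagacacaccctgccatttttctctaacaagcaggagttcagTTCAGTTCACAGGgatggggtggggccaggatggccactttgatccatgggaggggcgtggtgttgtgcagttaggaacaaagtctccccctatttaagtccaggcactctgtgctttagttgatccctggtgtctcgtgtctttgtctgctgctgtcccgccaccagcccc
Alpi, chr1:87101557-87101856, minus strand: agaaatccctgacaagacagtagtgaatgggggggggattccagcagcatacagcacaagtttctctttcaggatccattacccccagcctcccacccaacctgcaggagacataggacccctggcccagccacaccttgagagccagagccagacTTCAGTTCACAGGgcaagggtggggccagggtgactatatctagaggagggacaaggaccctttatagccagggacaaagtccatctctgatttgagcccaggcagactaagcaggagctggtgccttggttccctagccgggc
Alppl2, chr1:87089879-87090178, minus strand: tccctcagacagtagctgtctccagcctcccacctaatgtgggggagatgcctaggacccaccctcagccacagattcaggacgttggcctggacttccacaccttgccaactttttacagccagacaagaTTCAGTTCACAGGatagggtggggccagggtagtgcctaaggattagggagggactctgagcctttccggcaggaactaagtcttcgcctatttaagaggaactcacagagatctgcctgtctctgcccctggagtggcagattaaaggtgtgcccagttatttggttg

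The marked run ended 109 bases before the start in Akp3, 81 bases before it in Alpi and 106 bases before it in Alppl2. Counting both strands, 10 of 32851 promoters in the table held the marked run (0.0304%). The unmarked run was not counted. Global alignments gave identities that depended on the cost of a gap, and the gap costs were chosen after identities had been seen. Over 8 gap costs the 3 neighbours matched each other at 56.0% to 82.0% of aligned bases, and the 2 Alpl promoters matched them at 39.4% to 73.3%. With the costliest gaps these ranges were 56.0% to 60.7% and 39.4% to 48.9%. With the cheapest gaps they were 72.5% to 82.0% and 67.3% to 73.3%, and there they overlapped.

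The 4-letter core TAAT that many homeodomain factors bind was searched on both strands. It was not found in the Akp3 window, and it was found once in the Alpi window and 3 times in the Alppl2 window. Of all promoters in the table, 58.0% held it. TTTAT, known from sites of the homeodomain factors Cdx1 and Cdx2, was found in the Alpi window alone of these 3, and 40.0% of all promoters held it. The letters of both motifs can overlap at their ends. A match is a description of these windows only.

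Akp3 read 9.71, 9.88, 9.12 and 10.47 log2 units in KO 1 to 4, against 13.08, 12.51, 12.56 and 13.03 log2 units in Ctrl 1 to 4. Every KO sample was below every Ctrl sample, with a gap of 2.04 log2 units between the highest KO and the lowest Ctrl value. The means were 9.80 ± 0.55 in KO and 12.79 ± 0.30 in Ctrl samples (SD, n = 4 each). The log2 difference was -3.00 with a standard error of 0.25 and a 95% confidence interval of -3.54 to -2.45, and the KO level was 12.5% of the Ctrl level. Over the whole array 1 probe set had a larger fall, that of the glucuronosyltransferase Ugt2b38.

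The Akp3 transcript was much reduced but still read as a fairly bright probe set in the knockout. In KO samples between 4.78% and 11.6% of the probe sets on the array were brighter, against 0.555% to 1.04% in Ctrl samples. The probe sequences were not used here, and Akp3 and Alpi are close relatives, so how much of the remaining signal comes from relatives was not tested. In whole tissue, fewer cells of a type and less RNA per cell cannot be told apart.

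Alpi, the paralog expressed along the whole intestine, was among the brightest probe sets of the tissue in both groups. It read 13.82, 13.75, 13.62 and 13.80 log2 units in KO 1 to 4, against 14.00, 13.86, 13.96 and 14.05 log2 units in Ctrl 1 to 4. The KO values all lay below the Ctrl values, but the gap was 0.047 log2 units, smaller than the spread within either group. The log2 difference was -0.22 with a standard error of 0.072 and a 95% interval of -0.38 to -0.063, a KO level of 85.7% of Ctrl. Between 0.164% and 0.280% of probe sets were brighter than Alpi in KO samples, against 0.0822% to 0.138% in Ctrl samples. Values this near the top of the array's range, which ended at 14.83, can understate a change.

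Alpl read 5.16, 5.26, 5.44 and 5.17 log2 units in KO 1 to 4, against 5.09, 5.15, 4.97 and 5.07 log2 units in Ctrl 1 to 4. The KO values all lay above the Ctrl values, but KO 1 and Ctrl 2 were 0.0045 log2 units apart. The log2 difference was 0.19 with a standard error of 0.080 and a 95% interval of 0.0083 to 0.36. Alpl was as dim as the middle of the array: 47.4% to 51.5% of probe sets were brighter in KO samples and 51.4% to 54.0% in Ctrl samples. The table gives no detection calls, so whether Alpl was above background is unknown.

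**Figure D1:**
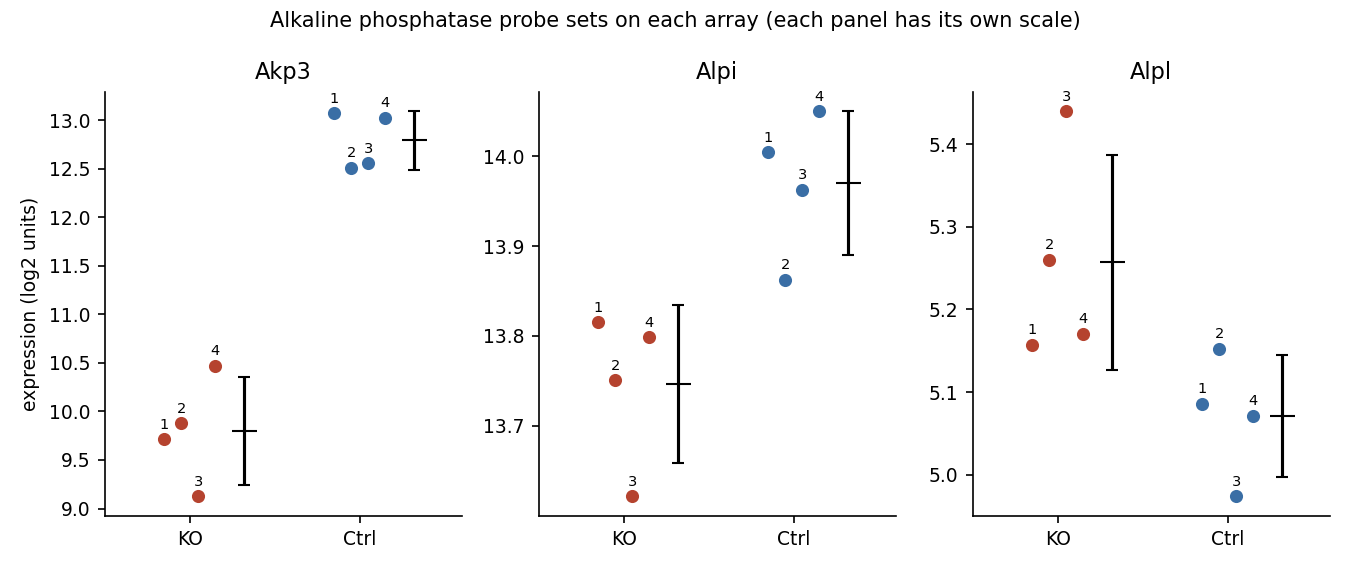
Expression of Akp3, Alpi and Alpl on the log2 scale (vertical axis, a separate scale in each panel) in the 4 KO and 4 Ctrl arrays. Numbered points are mice, and the bars beside them are means with SD. The KO and Ctrl points do not overlap in any panel, but the gap is 2.04 log2 units for Akp3, 0.047 for Alpi and 0.0045 for Alpl.

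At an adjusted p under 0.05 in limma 1 of the 3 probe sets was called, Akp3, beside 0.0422% of all 45037 probe sets, or 0.0377% counting only lower ones. Groups without overlap were seen in 3 of the 3, beside 4.43% of all probe sets. Of the 3, 2 were lower in KO samples without overlap, as were 2.33% of all probe sets. The other 1 was higher without overlap, as were 2.1% of all. With values under 5 set to 5, or with an ordinary linear model, Akp3 was not called. Nothing further is read from these counts, since this contrast was known when the genes were chosen. The Akp3 difference lay 2.77 log2 units below the Alpi difference and 3.18 below the Alpl difference, and the Alpi difference lay 0.41 below the Alpl difference. The first of these came from an Akp3 minus Alpi value between -4.50 and -3.33 in KO arrays and between -1.41 and -0.93 in Ctrl arrays. These are differences in how far each probe set moved, not levels of the proteins. They take in the limits given above for Alpi, near the top of the range, and for Alpl, whose detection is unknown, so they do not measure how far the transcripts themselves differed.

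Alppl2, which was not used in choosing the genes, had a pair of probe sets that did not give the same picture. The first of them read 5.95, 5.90, 5.66 and 5.91 log2 units in KO 1 to 4, against 6.18, 6.12, 6.31 and 6.27 log2 units in Ctrl 1 to 4. Its log2 difference of -0.37 (SE 0.083) was not called (adjusted p = 0.423 in limma), although the groups did not overlap. Of all probe sets, 2.33% were lower in KO samples without overlap. The second, of a class that can match more than 1 transcript, averaged 6.00 ± 0.061 in KO and 6.14 ± 0.18 in Ctrl samples (SD, n = 4 each), and its groups overlapped (log2 difference -0.15, adjusted p = 0.775 in limma). Both were close in brightness to many other dim probe sets, with 36.6% to 44.7% of the array brighter.

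The genes around Alpi and Akp3 gave a frame for their position. Of the 10 nearest protein-coding genes, 5 on each side and Alppl2 among them, 10 were measured, 0 fell and 0 rose in the test. Only 0.0422% of all probe sets were called, so 0 calls among 10 genes says little, here or around Alpl. Nppc, Prss56 and Chrng averaged 4.03, 3.84 and 4.53 log2 units over the arrays, below the array medians, so their detection is unknown. The log2 differences of the 10 genes ran from -0.56 to 0.079, with a median of -0.027, against a median of 4.75e-05 over all probe sets. The lowest belonged to Ecel1, an endopeptidase-like protein known from neurons and the gene next to Akp3 on the side away from Alpi. It read 4.84, 4.75, 4.39 and 4.82 log2 units in KO 1 to 4, against 5.31, 5.02, 5.36 and 5.34 log2 units in Ctrl 1 to 4. The Ecel1 groups did not overlap, and 2.33% of all probe sets were lower in KO samples without overlap. The adjusted p of Ecel1 was 0.368 in limma, and its values lay near or below the array medians. Around Alpl 9 of 10 neighbours were measured, 0 fell and 0 rose, with log2 differences from -0.27 at Rap1gap, a regulator of small GTPases, to 0.11 at Hp1bp3, a heterochromatin-binding protein.

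**Figure D2:**
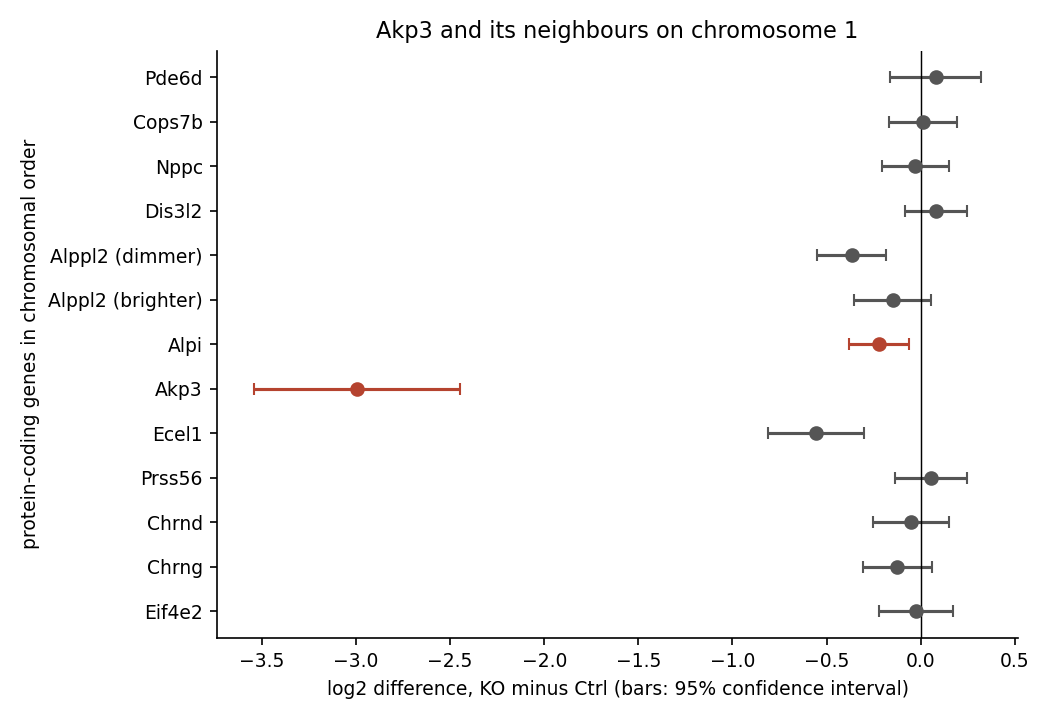
Log2 difference, KO minus Ctrl, with its 95% confidence interval (horizontal axis) for Akp3, Alpi, both Alppl2 probe sets and the other neighbouring protein-coding genes, listed in chromosomal order. Akp3 lies at -3.00, while every neighbour lies between -0.56 and 0.079, some of them dim probe sets whose detection is unknown.

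Within the groups, the Akp3 values covered a range of 1.35 log2 units over the KO samples, a 2.55-fold spread, and 0.56 over the Ctrl samples. Alpi ranged over 0.19 log2 units in both KO and Ctrl samples, and Alpl over 0.28 in KO and 0.18 in Ctrl samples. Near the top of the range and among dim probe sets a small range does not show that a transcript varied little. KO 3 held the lowest KO value of Akp3, of Alpi and of the first Alppl2 probe set, and the highest KO value of Alpl. Ctrl 2 held the lowest Ctrl value of the same 3 probe sets and the highest Ctrl value of Alpl. KO 3 and Ctrl 2 were also the arrays at one end of the first principal component.

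The brighter Pdx1 probe set and Akp3 did not rank alike among the knockouts. KO 4 had the lowest KO value of the brighter Pdx1 probe set, 5.58, and the highest Akp3, 10.47. KO 3 had the highest Pdx1, 6.18, and the lowest Akp3, 9.12. The KO values of this Pdx1 probe set, 5.58 to 6.18, stood against array medians of 5.23 to 5.27. Those of the dimmer Pdx1 probe set, 4.88 to 5.13, lay below these medians. No detection calls are given, so whether the KO values of Pdx1 were above background is unknown, and nothing is read from the ranks. With 4 arrays a group no correlation was computed. Without KO 3 and Ctrl 2 together, a choice made after the data were seen, the log2 differences were -2.86 for Akp3, -0.22 for Alpi and 0.15 for Alpl.

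**Figure D3:**
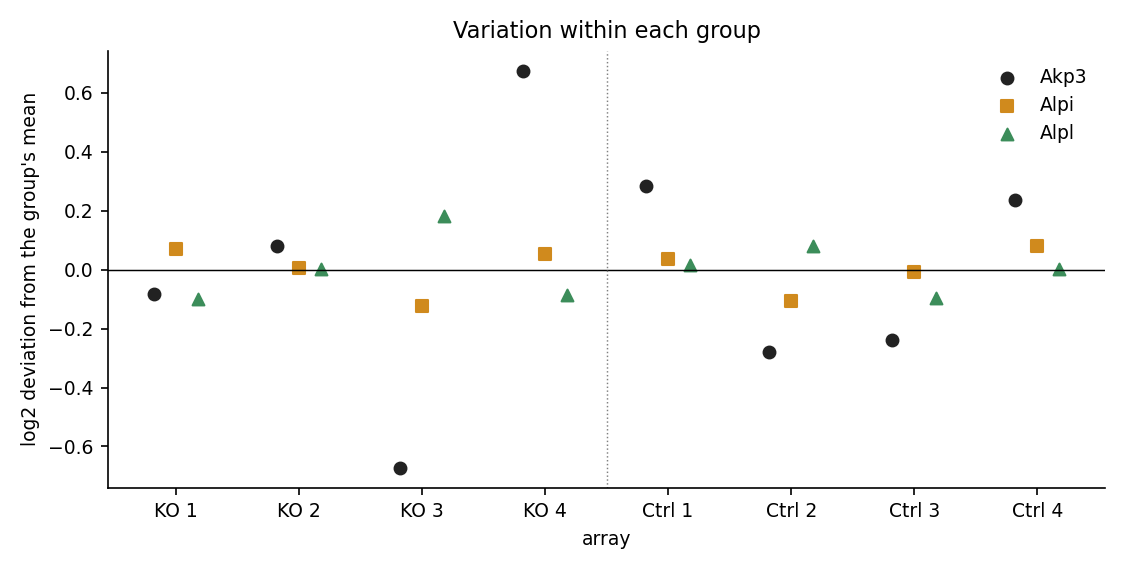
Deviation of each array from its own group's mean in log2 units (vertical axis) for Akp3, Alpi and Alpl over the 4 KO and 4 Ctrl arrays. In KO 3 the Akp3 point lies at -0.67 and the Alpl point at 0.18, and in KO 4 the Akp3 point lies at 0.68.

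Genes with a pattern like that of Akp3 were picked among 2318 probe sets of 1839 genes with a mean of at least 7 and an SD of at least 0.2 over the arrays. Pearson's r over the 8 arrays, which mostly reflects the step between KO and Ctrl, was highest for Slc19a3, a thiamine transporter (0.996), and for Gip, a hormone of K cells (0.984). Next came Ugt2b38 (0.973), the calcium-binding protein S100g (0.972), the ferritin heavy chain Fth1 (0.968) and the iron exporter Slc40a1 (0.961). The lowest r belonged to the metallothionein Mt1 (-0.965), Resf1 (-0.964), the membrane trafficking protein Scamp1 (-0.963) and the myotubularin family member Mtmr11 (-0.948). These values are descriptions: all arrays share the same 2 groups.

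For Alpi and Alpl the genes with the highest r were picked from the same 2318 probe sets, as a description only. Alpl itself averaged 5.16 log2 units, below the mean of 7 asked of those probe sets, and its detection is unknown. For Alpi the highest r over the 8 arrays was with the ribonuclease Rnase4 (0.978), the semaphorin receptor subunit Plxna2 (0.977), Fth1 (0.975) and the lipoprotein receptor Scarb1 (0.968). None of these was called, and their log2 differences lay between -0.58 and -0.31. For Alpl it was with Tmcc3 (0.970), 4932438A13Rik (0.969), the DNA repair protein Rad23b (0.968) and the actin-binding protein Cotl1 (0.965), none of them called. Fth1 stood in the lists of both Akp3 and Alpi, with a log2 difference of -0.35 (adjusted p = 0.393 in limma). It averaged 13.88 log2 units and, like Alpi, lay near the top of the array's range.

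Transcription factors of the intestine, including some known to act on intestinal alkaline phosphatase genes, were compared next. Of 20 measured members 1 fell, Pdx1, 0 rose and 19 did not pass, with a median log2 difference of -0.011. Cdx1, a homeodomain factor known to activate the human intestinal enzyme's gene, had 0.27 (adjusted p = 0.701 in limma). Klf4, a zinc finger factor with the same reported role, had -0.090, and the thyroid hormone receptor Thra had -0.0037. Hnf4g, at 0.28, was higher in every KO sample, and Vdr, at -0.41, and Onecut2, at -0.26, were lower in every KO sample. None of the 3 passed, and they were named after their values were seen. With Pdx1, 3 of the 20 were lower and 1 was higher without overlap. Of all probe sets, 2.33% were lower and 2.1% higher without overlap.

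Values for other enzymes of the brush border lay mostly above 0, as did those of the enterocyte and smooth muscle markers given below. Of 14 measured hydrolases 0 fell and 0 rose in the test, while 13 had values above 0. Genes of a list can rise and fall together between arrays, so this is not a count of independent genes. The median of the hydrolases was 0.27, against 4.75e-05 over all probe sets. Deviations from each gene's mean, averaged over the list, were 0.18, 0.10, -0.14 and 0.25 in KO 1 to 4. In Ctrl 1 to 4 they were 0.10, -0.39, 0.030 and -0.15, so the groups overlapped. The summed linear signal was 66848 to 75754 in KO and 54018 to 66315 in Ctrl samples. The aminopeptidase Anpep read 13.71, 13.87, 13.93 and 13.71 log2 units in KO 1 to 4, against 13.41, 13.36, 13.60 and 13.12 log2 units in Ctrl 1 to 4. Its log2 difference of 0.43 did not pass (adjusted p = 0.476 in limma). Asah2, a neutral ceramidase, had 0.30 (adjusted p = 0.629 in limma). The exception in sign was Tmprss15, which encodes enteropeptidase, the duodenal activator of trypsinogen, at -0.37 with overlapping groups.

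The genes that make and attach the GPI anchor of these enzymes had values close to 0. Of 28 measured genes of GPI anchor synthesis and attachment 0 fell and 0 rose, the median was 0.011 and all values lay between -0.29 and 0.27. The lowest was Piga, a subunit of the enzyme of the first step. Pgap2 had 0.19 (adjusted p = 0.641 in limma) and Pgap1 had 0.27 (adjusted p = 0.662 in limma), both of which act on the anchor after it is attached. Of 27 other GPI-anchored proteins 0 fell and 0 rose, with a median of 0.030 and values between -0.56 and 0.53. The pantetheinase Vnn1 had the highest value, 0.53, and was higher in every KO sample (adjusted p = 0.423 in limma), as were 2.1% of all probe sets. Ly6g6c had -0.19 (adjusted p = 0.625 in limma).

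Genes that act on the substrates and products of these enzymes were next. Of 16 measured genes of luminal nucleotide breakdown 0 fell and 0 rose (median 0.043). The nucleotide receptor P2ry2 had 0.42 without overlap (adjusted p = 0.502 in limma). The ectonucleotidase Entpd8 had 0.17 (adjusted p = 0.694 in limma), also without overlap, but with a gap of 0.0094 log2 units. Of all probe sets, 2.1% were higher in KO samples without overlap. Of 12 measured genes of phosphate, pyrophosphate and pyridoxal handling 1 fell and 0 rose (median -0.011). The one that fell, Slc19a3, is known as a thiamine transporter, not for phosphate. It averaged 8.63 ± 0.11 in KO and 9.20 ± 0.056 in Ctrl samples (SD, n = 4 each), a log2 difference of -0.57 (adjusted p = 0.0312 in limma). That call was lost without Ctrl 1, 2, 3 or 4 and without KO 1, 2 or 3, with adjusted p between 0.0570 and 0.167, and with KO 4 left out it held (0.0226). Its log2 difference stayed between -0.62 and -0.53 over the 17 alternatives. A second, dimmer Slc19a3 probe set was called too, with 7.28 ± 0.048 in KO and 7.94 ± 0.13 in Ctrl samples (SD, n = 4 each) and a log2 difference of -0.66 (adjusted p = 0.0141 in limma). Its call was lost without Ctrl 1 or 3 and without KO 1, 2 or 3, with adjusted p between 0.0503 and 0.0984, and its log2 difference stayed between -0.70 and -0.62.

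Of 12 measured acid and other phosphatases 0 fell and 0 rose, with a median of -4.94e-04. Plpp1, a lipid phosphate phosphatase, had 0.12 (adjusted p = 0.794 in limma), and the glucose-6-phosphatase G6pc had 0.33 (adjusted p = 0.826 in limma). Of 14 measured genes of endotoxin sensing 0 fell and 0 rose (median 0.039). Tollip, an inhibitor of that signalling, had 0.20 (adjusted p = 0.684 in limma) and the endotoxin-binding protein Lbp had -0.11 (adjusted p = 0.780 in limma).

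Markers of the cells in the tissue are given beside the phosphatases, and their part in the differences was not tested. Of 14 enterocyte markers 12 had values above 0 and none was called, with a median of 0.15. Their summed linear signal was 164730 to 185490 in KO and 154211 to 169103 in Ctrl samples. Fabp1, Fabp2, Apoa1 and Apoa4 hold much of that sum and lie near the top of the array's range, where a change can be understated. Krt20, a keratin of mature enterocytes, had 0.22 (adjusted p = 0.599 in limma) and Apoa1 had 0.18 (adjusted p = 0.659 in limma).

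For the cell types in which Alpl is known, the endothelial markers gave a summed linear signal of 1132 to 1351 in KO and 1146 to 1387 in Ctrl samples, with 7 of 11 above 0. The stromal markers gave 9057 to 10236 in KO and 8098 to 10734 in Ctrl samples, with 7 of 10 above 0, and the neutrophil markers 366.7 to 623.7 in KO and 390.4 to 595.4 in Ctrl samples, with 5 of 9 above 0. Within them the endothelial gene Vwf had 0.49 (adjusted p = 0.400 in limma), Tek 0.24, the stromal genes Vim 0.22 and Lum 0.19, and the neutrophil genes S100a9 -0.21 and Ngp 0.090. The dimmest neutrophil marker averaged 3.84 log2 units over the arrays.

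Of tissues next to the sampled segment, 12 of 12 exocrine pancreas markers and 10 of 10 gastric markers had values below 0, with medians of -0.21 and -0.26, and none was called. The pancreas markers summed to 95946 to 180855 in KO and 52937 to 247005 in Ctrl samples, and the gastric markers to 30961 to 44994 in KO and 31278 to 64569 in Ctrl samples. Clps had -0.33, Sycn -0.56, Ctse -0.35 and Gkn3 -0.50. Genes of a list can rise and fall together between arrays, so the counts above are not of independent genes. Deviations from each gene's mean, averaged over the pancreas list, were -0.36, -0.41, 0.58 and -0.32 in KO 1 to 4. In Ctrl 1 to 4 they were 0.50, 0.27, -1.32 and 1.07. For the gastric list they were -0.25, -0.038, -0.018 and -0.17 in KO 1 to 4. In Ctrl 1 to 4 those were -0.29, 0.58, 0.26 and -0.071. In both lists the groups overlapped. All 10 smooth muscle markers had values above 0 (median 0.21), with Actg2 at 0.52 and Synm at 0.40, and sums of 11945 to 15549 in KO and 11401 to 12296 in Ctrl samples. Their averaged deviations were 0.30, -0.0040, 0.29 and -0.10 in KO 1 to 4. Those in Ctrl 1 to 4 were -0.20, -0.094, -0.059 and -0.13, so these groups overlapped too. Of 7 genes listed as ileum markers 5 had values above 0 (median 0.18), with Slc51a at 0.18. Slc5a12 had 1.53 with overlapping groups (adjusted p = 0.421 in limma), and whether it marks the ileum was not checked. The sums over this list were 6620 to 7620 in KO and 4898 to 6839 in Ctrl samples.

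**Figure D4:**
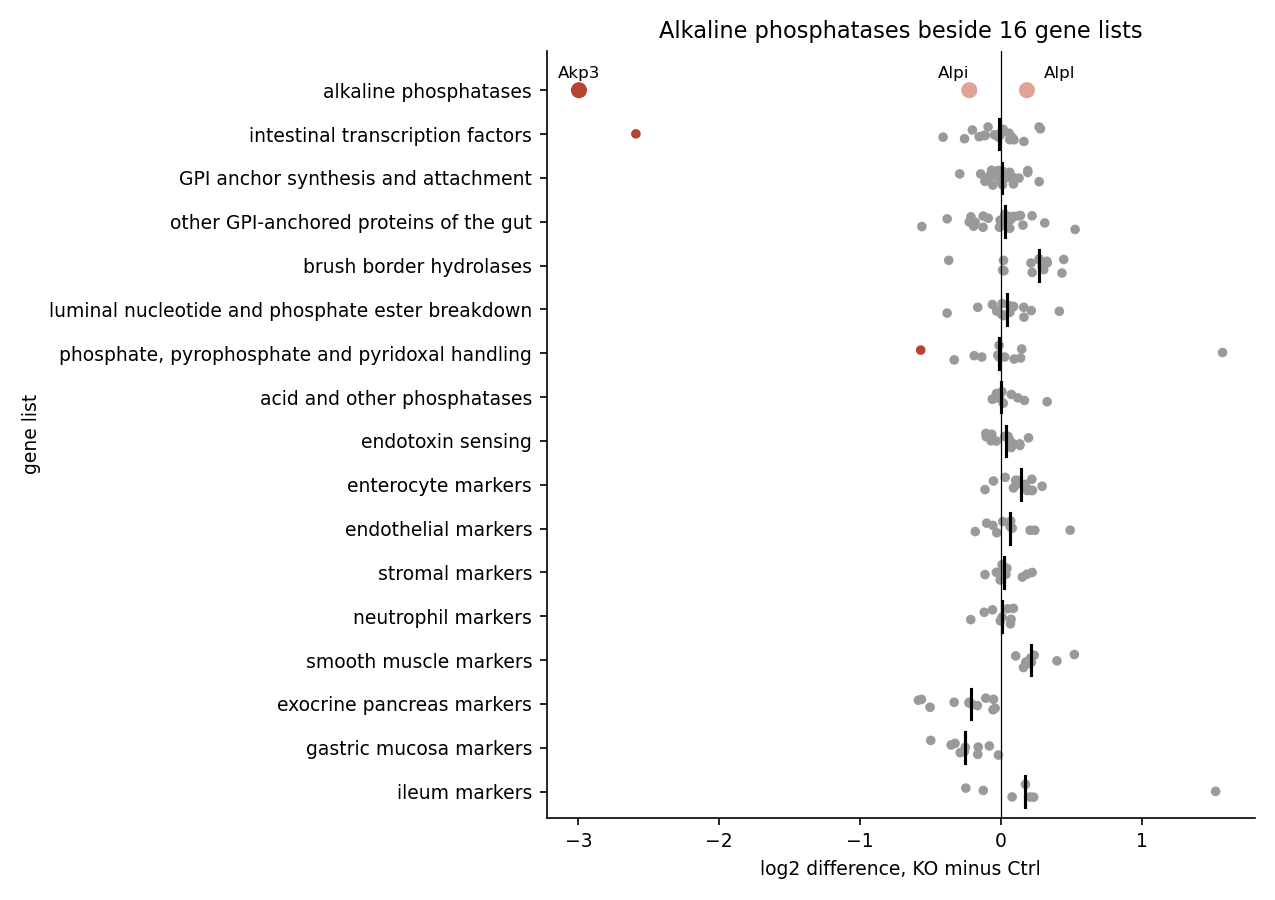
Log2 difference, KO minus Ctrl (horizontal axis), of the 3 alkaline phosphatases and of each measured gene in 16 lists. Dark red points were called at an adjusted p under 0.05, pale red and grey points were not, and black ticks are list medians, which lie between -0.26 and 0.27. Akp3 at -3.00 lies below every list gene, the lowest of which is Pdx1 at -2.59.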

How the data were processed

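The authors deposited 1 table of log2 values, with 45101 probe sets and 8 arrays. The submitters' processing notes list Partek 6.4 but not what it did. For background correction, summarisation and normalization the method is not given in the sources used here. That the scale is log2 was read from the values. Normalization between arrays hides any shift of all transcripts together. After 64 array controls were left out, 45037 probe sets were tested. Gene symbols were taken from the platform annotation at GEO (34945 probe sets with 1 symbol, 932 with several, 9160 with none), and 34741 were matched to RefSeq by Entrez identifier. No build is named in the table, so the coordinates printed are RefSeq's own.

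KO minus Ctrl was fitted with lmFit and eBayes in limma 3.58.1 (R 4.3.3), without filter, covariate or block, and p-values were adjusted over all probe sets by the Benjamini-Hochberg method, two-sided. A gene in a list stood as its brightest probe set. Of 254 list entries, 226 were measured under a single symbol, and older symbols were matched through RefSeq. Summed linear signal is the sum over a list of 2 raised to each log2 value. Promoters were aligned with Biopython 1.88 (match 1, mismatch -1, gap opening from -5 to -2, gap extension -1 or -0.5). The gap costs were changed after identities had been seen, so the range over all 8 is given. The fit was tested on simulated data.

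The members, the 16 lists and the naming rule were chosen with earlier results of these data known. The rule named all probe sets of the members and of Alppl2, Pdx1 and Vil1, up to 4 called members of each list, or the 2 with the smallest p where none was called, up to 5 neighbours on each side, and the genes most like each member. Cdx1, Klf4, Thra, Hnf4g, Vdr, Onecut2, Tmprss15, Piga, Slc34a2 and the second Slc19a3 probe set were named outside it, after their values were seen. The labels call the samples biological replicates. Replicate numbers were checked for pairing: deviations of same-numbered arrays correlated between -0.18 and 0.076, so they were not treated as pairs. Alternatives were a replicate block, 2 normalizations, a mean filter at 5, a floor at 5, another variance prior, array weights, an ordinary linear model, gene means and each sample left out. Figures were drawn with matplotlib 3.10.9.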

Additional observations from a re-analysis of the deposited data

Results flagged for a closer look

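A single array stood far from the other 3 of its group in 4 of 70 checks of a probe set in a group, where chance gives about 5%. The first Alppl2 probe set read 5.66 in KO 3. Krt20, the enterocyte keratin, read 13.34 in Ctrl 4. The endothelial gene Vwf read 6.26 in KO 4, and the pancreatic colipase gene Clps read 13.49 in KO 3. None of the 3 alkaline phosphatases was among them. KO 3 appears in 2 of the 4, and it was also the array furthest from the rest on the first principal component.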

How the results depend on the processing

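The log2 differences of the alkaline phosphatases kept their sign in all 14 alternatives computed for them. They ran from -3.22 to -2.77 for Akp3, from -0.26 to -0.18 for Alpi and from 0.12 to 0.22 for Alpl, and each range was set by leaving out single samples. The Akp3 difference minus the Alpi difference ran from -2.98 to -2.59, with Alpi near the top of the range. With values under 5 set to 5 the called probe sets numbered 4 in place of 19, and with an ordinary linear model 2. In both settings 0 alkaline phosphatases, 0 transcription factors and 0 genes of phosphate handling were called, so Akp3 and Pdx1 lost their calls there while their log2 differences stayed at -3.00 and -2.59. Array weights gave 18 lower and 5 higher probe sets, against 17 and 2 in the fit reported. With samples left out in turn the probe sets called numbered 13 to 20 and the alkaline phosphatases 1 to 1. Calls in the phosphate handling list numbered 0 to 1. In the fit reported, the call in that list was Slc19a3, known as a thiamine transporter. Without KO 3 and Ctrl 2 together 17 probe sets were called, and 0 phosphate handling genes. Fitted with the replicate number as a block, 24 probe sets were called, 16 of them among the 19, with 1 alkaline phosphatase and 0 phosphate handling genes (Slc19a3, adjusted p = 0.123 in limma). The labels do not say that the number pairs the samples, and 0 of 4 KO arrays correlated best with the Ctrl array of the same number. For the other lists and for the neighbours every alternative run gave the counts reported. Before adjustment 3210 probe sets had a p under 0.05.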

Other observations

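Slc34a2, the sodium phosphate cotransporter of the intestinal brush border, had the highest log2 difference among the phosphate handling genes and was picked out after its values were seen. It read 7.15, 8.72, 10.05 and 7.04 log2 units in KO 1 to 4, against 6.88, 7.07, 6.46 and 6.25 log2 units in Ctrl 1 to 4. KO 2 and KO 3 were far above the rest, while KO 4 lay just below Ctrl 2. The log2 difference was 1.58 with a 95% interval of 0.32 to 2.83, and it did not pass (adjusted p = 0.648 in limma). KO 3, the highest for Slc34a2, was the lowest for Akp3, and KO 4, the lowest KO sample for Slc34a2, was the highest KO sample for Akp3.

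With the step between the groups removed, other genes followed Akp3. Over the 8 arrays, the deviations from group means were most like those of Akp3 for Gstm1, a glutathione transferase (r = 0.977), Hnrnpab, an RNA-binding protein (0.970), and Ces2a, a carboxylesterase (0.966). Maf, a transcription factor, had 0.966, 4931406C07Rik 0.965 and the endothelin receptor Ednrb 0.960. Their own log2 differences between KO and Ctrl samples lay between -0.12 and 0.11, and none was called. These 6 were the highest of 1839 genes over 8 arrays, so they are given as a description only.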
